A study of Mus musculus with 15 samples.

Results

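The immediate early genes of the mouse ovary were described as 10 genes chosen by name, Fos, Fosb, Jun, Junb, Atf3, Egr1, Egr2, Nr4a1, Nr4a2 and Ier2, of 27907 genes measured. All 10 were present under these symbols, and all 10 passed the filter of a mean of at least 2 normalized counts. Ovaries of 7 HSD17B1-KI and 8 WT female mice were compared by mRNA sequencing, with 1 library per mouse. The HSD17B1-KI mice carry the genotype labelled HSD17B1 Ser143Ala, in which a serine of the catalytic site of this estradiol-forming enzyme is replaced by alanine in all cells, and the WT mice carry the unchanged gene. All mice of both groups were 6 months old and in the estrus stage of the cycle. Their ovaries were dissected after CO2-asphyxiation and snap-frozen. The labels name no batch, but the library numbers ran with genotype, 1 to 7 in HSD17B1-KI and 8 to 15 in WT, so that an effect of library order and of genotype cannot be told apart.

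Immediate early genes are transcribed within minutes of a stimulus, without new protein synthesis, because the factors that switch them on (CREB, the serum response factor and its partners) are already in the cell. Most of their products are transcription factors that pass the signal on: FOS and JUN proteins pair as AP-1, EGR proteins bind GC-rich sites, and NR4A proteins are orphan nuclear receptors. In the ovary they are known as early targets of luteinizing hormone and cAMP in granulosa and theca cells, and NR4A1 regulates steroidogenic genes. They are also known to rise with handling, hypoxia and dissociation of tissue.

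The 250 bases before the start of 4 members are shown because Junb and Nr4a1 varied together across the ovaries, while the correlation of Fos with Jun was below 0 without passing the adjusted threshold. They are RefSeq entries on GRCm38.p6, read 5' to 3' in the direction of the gene. The capitals mark TGACG, the core of the cAMP response element (CRE), on either strand, and in Jun the element TGACATCA, an AP-1-like site. Fos is at chr12:85473640-85473889 on the plus strand, Jun at chr4:95052223-95052472 on the minus strand, Junb at chr8:84978749-84978998 on the minus strand and Nr4a1 at chr15:101266596-101266845 on the plus strand, within an intron of the longest GENCODE gene model.
Fos: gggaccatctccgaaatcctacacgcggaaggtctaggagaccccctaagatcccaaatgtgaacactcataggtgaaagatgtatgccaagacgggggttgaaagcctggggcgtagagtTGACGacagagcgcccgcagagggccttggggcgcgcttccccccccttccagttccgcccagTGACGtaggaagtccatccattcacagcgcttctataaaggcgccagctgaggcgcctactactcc
Jun: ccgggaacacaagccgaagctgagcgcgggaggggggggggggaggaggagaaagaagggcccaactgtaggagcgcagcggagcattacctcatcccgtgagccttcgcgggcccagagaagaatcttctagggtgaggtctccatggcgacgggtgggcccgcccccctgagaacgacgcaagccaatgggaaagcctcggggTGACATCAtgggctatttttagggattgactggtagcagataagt
Junb: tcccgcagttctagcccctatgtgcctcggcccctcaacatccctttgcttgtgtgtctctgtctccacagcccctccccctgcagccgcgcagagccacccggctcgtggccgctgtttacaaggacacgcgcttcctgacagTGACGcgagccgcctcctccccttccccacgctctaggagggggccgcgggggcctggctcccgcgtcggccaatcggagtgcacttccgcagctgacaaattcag
Nr4a1: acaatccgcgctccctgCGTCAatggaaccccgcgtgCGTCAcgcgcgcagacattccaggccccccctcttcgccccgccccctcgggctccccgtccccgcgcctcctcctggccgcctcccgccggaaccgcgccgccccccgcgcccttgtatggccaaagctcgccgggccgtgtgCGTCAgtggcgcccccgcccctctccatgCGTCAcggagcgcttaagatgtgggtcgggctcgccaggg

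RefSeq windows were found for 8 of the 10 members, without Egr1 and Ier2. TGACG was present on either strand in 7 of these 8, all except Jun, against 17.8% of 32841 windows of the same length. For Egr2 this counts its 5 listed starts together, of which 3 had the letters. Fos had 2 matches, beginning 129 and 66 bases before the start. Nr4a1 had 4, at 233, 213, 69 and 40 bases, and Nr4a2 also had 4, a number that 0.137% of windows reached. Junb had 1, at 106 bases. TGACATCA or its complement was present in Jun, at 45 bases, and in none of the other members with a window, against 2.93% of windows. A CArG box, the serum response factor motif, was present in 4 of the 5 Egr2 windows and in no other member, against 1.47% of windows. The full CRE TGACGTCA, which contains TGACG and was present in 1.55% of windows, the AP-1 site TGANTCA (6.75%) and the NR4A site AAAGGTCA (1.34%), searched on both strands, had no match in any of these windows.

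Between 26544745 and 72362981 reads per library were counted on genes, with medians of 43611091 in HSD17B1-KI and 45313571.5 in WT. The marker genes of granulosa, theca, luteal and oocyte cells were detected in the libraries of both genotypes, none of them at 0 in all mice. Marker genes of the oviduct summed to 219589 normalized counts in WT 1 and 141934 in WT 8, and to at most 20664 in the other 13 mice. The values below are normalized counts, which are the reads of a gene divided by 1 size factor per library. They come from whole ovaries, so that fewer cells of a type and less RNA per cell cannot be told apart.

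For none of the 10 immediate early genes did the difference between HSD17B1-KI and WT ovaries exceed the spread between mice. Their log2 fold changes lay between -0.39 (Fosb) and 0.16 (Egr1), 6 above and 4 below 0, with a median of 0.02 beside a median of -0.02 over all 21525 genes tested. In the all-gene comparison with limma-trend, 46 genes, or 0.214%, were differentially expressed (DE) at an adjusted p under 0.05, and 0 of the members were among them. The lowest adjusted p of a member was 0.666, for Nr4a2. At an unadjusted p under 0.05, 0 of the 10 members passed, where 5.36% of all genes were higher and 4.64% lower in HSD17B1-KI. The count tests also called 0 members, where edgeR called 0.232% and DESeq2 2.16% of all genes. The precision differed widely between members, as the plot of the fold changes with their intervals shows. For Jun the 95% interval of the ratio of HSD17B1-KI to WT was 0.818 to 1.18, and for Nr4a2 0.746 to 1.05. For Nr4a1 it was 0.463 to 2.43, and for Fos the log2 fold change had an interval of -0.97 to 1.14.

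**Figure D1:**
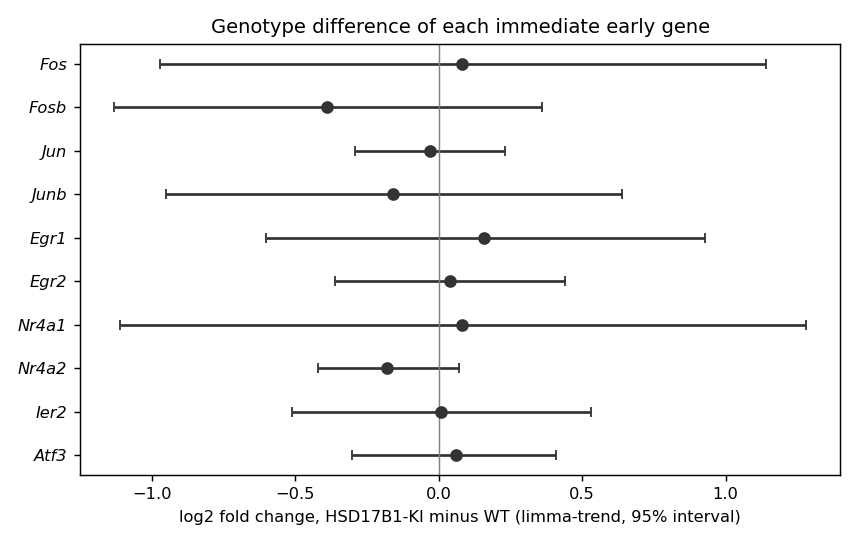
Log2 fold change of each immediate early gene, HSD17B1-KI minus WT, on the horizontal axis, with the 95% interval of limma-trend as bars (7 HSD17B1-KI and 8 WT mice). The interval of each gene includes 0, the narrowest being those of Nr4a2 (-0.42 to 0.07) and Jun (-0.29 to 0.23) and the widest that of Nr4a1 (-1.11 to 1.28).

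Fos (ENSMUSG00000021250, chromosome 12, 85473890 to 85477273) encodes the short-lived partner of JUN in AP-1. In HSD17B1-KI its lowest, median and highest values were 234, 628 and 2525 normalized counts, and in WT 197, 777 and 1698. The highest value of each genotype came from HSD17B1-KI 6 and WT 5, and the groups otherwise overlapped throughout. HSD17B1-KI mice averaged 842 ± 768 (SD, n = 7) and WT mice 751 ± 473 (SD, n = 8), a log2 fold change of 0.08 with a standard error of 0.50 (adjusted p = 0.971, limma-trend), and an exact permutation test over every division of the mice into 7 and 8, two-sided, gave p = 0.875. The log2 fold change was -0.24 without HSD17B1-KI 6 and 0.33 without HSD17B1-KI 5.

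Fosb (ENSMUSG00000003545, chromosome 7, 19302696 to 19310051), a further FOS protein, was the least abundant member and rested on 31 to 216 reads per library. It ranged over 37.8, 47.6 and 124 in HSD17B1-KI and over 44.98, 69.2 and 170 in WT (lowest, median and highest). The 2 lowest mice were HSD17B1-KI 3 and HSD17B1-KI 5, and the values of 5 of the 7 HSD17B1-KI mice lay under the WT mean. With a log2 fold change of -0.39 with a standard error of 0.35 (adjusted p = 0.765, limma-trend) the difference was within the spread between mice (p = 0.312, exact permutation test).

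Jun (ENSMUSG00000052684, chromosome 4, 95049034 to 95052222), the AP-1 subunit that can also pair with itself, was steady. Its lowest, median and highest values were 3553, 4338 and 6077 in HSD17B1-KI and 3885, 4277 and 5712 in WT, so that the highest mouse of all was only 1.71 times the lowest. The means of 4528 ± 965 (SD, n = 7) and 4575 ± 678 (SD, n = 8) differed by a log2 fold change of -0.03 with a standard error of 0.12 (adjusted p = 0.962, limma-trend). Jun shares 232 exonic bases with the antisense gene Junos, which averaged 161 normalized counts, and its count is uncertain to that extent because the use of strand in counting is not stated.

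Junb (ENSMUSG00000052837, chromosome 8, 84974484 to 84978718), the JUN protein that often restrains JUN, had values of 810, 1113 and 4652 in HSD17B1-KI and of 842, 1570 and 3334 in WT (lowest, median and highest). HSD17B1-KI 6 stood far above the next mouse of its genotype (1560 in HSD17B1-KI 5), as the plot of the members by mouse shows, and WT 5 was the highest in WT. The log2 fold change was -0.16 with a standard error of 0.37 (adjusted p = 0.926, limma-trend; p = 0.710, exact permutation test). Junb shares 173 exonic bases with Prdx2 on the opposite strand, whose mean was 16619 normalized counts, so that its count is uncertain in the same way.

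Atf3 (ENSMUSG00000026628, chromosome 1, 191170296 to 191218039), a stress-induced factor that pairs with JUN, ranged over 195, 217 and 301 in HSD17B1-KI and over 138, 227 and 355 in WT. Here WT 1 was the highest and WT 3 the lowest mouse of all, and HSD17B1-KI 6 and WT 5 did not stand apart. The log2 fold change was 0.06 with a standard error of 0.17 (adjusted p = 0.943, limma-trend).

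**Figure D2:**
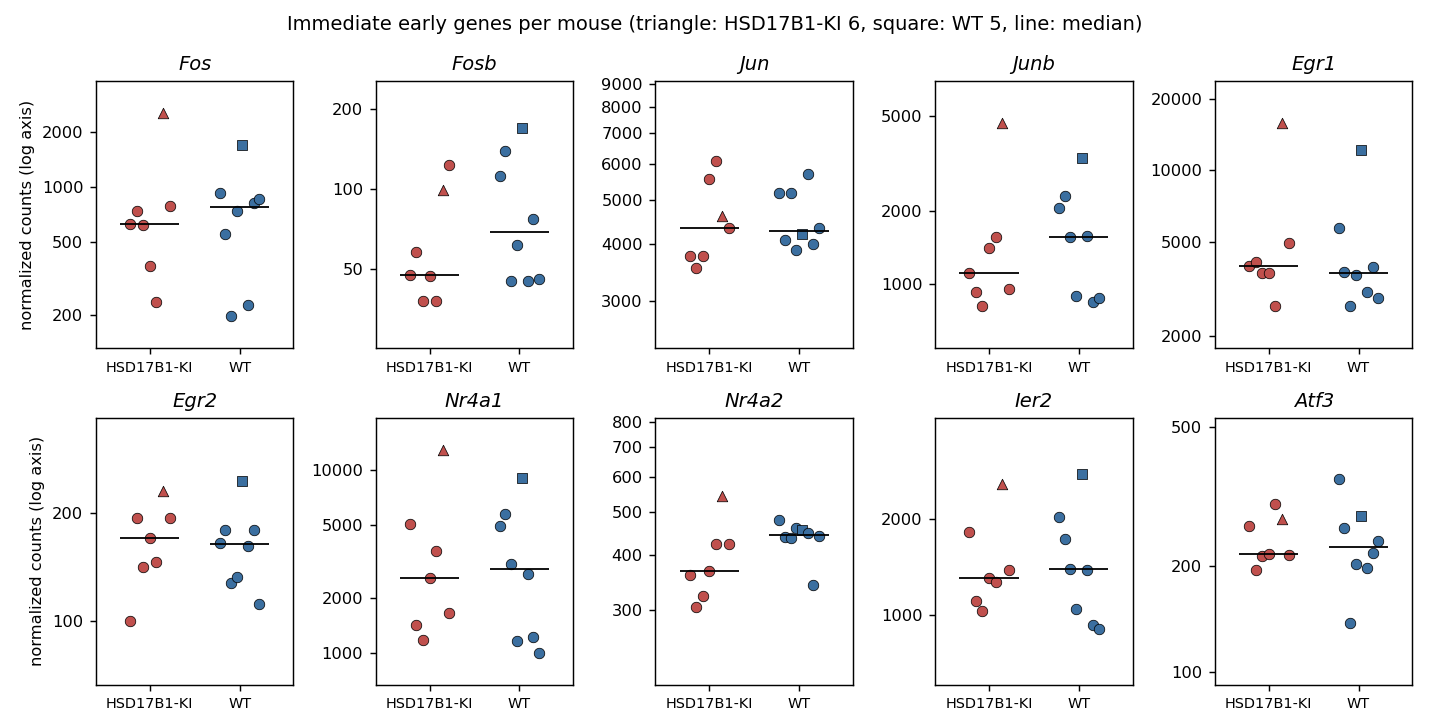
Normalized counts of the 10 immediate early genes (vertical log axes) in each HSD17B1-KI (red) and WT (blue) mouse, with the median of each genotype as a line. The triangle (HSD17B1-KI 6) and the square (WT 5) are at the top of their genotype for Fos, Junb, Egr1, Egr2, Nr4a1 and Ier2, whereas the genotypes overlap for each gene.

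Egr1 (ENSMUSG00000038418, chromosome 18, 34859823 to 34864984) encodes a zinc finger factor needed for pituitary LH production and induced by LH in the ovary. Its lowest, median and highest values were 2684, 3947 and 15882 in HSD17B1-KI and 2665, 3674 and 12164 in WT. HSD17B1-KI 6 and WT 5 had more than every other mouse, of which the highest, WT 1, had 5692. The log2 fold change was 0.16 with a standard error of 0.36 (adjusted p = 0.918, limma-trend; p = 0.645, exact permutation test). Its sign turned with DESeq2, which replaces outlying counts and gave -0.30, and it was -0.13 without HSD17B1-KI 6.

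Egr2 (ENSMUSG00000037868, chromosome 10, 67535475 to 67542188), its paralog, was much lower and moved less, with 99.9, 171 and 231 normalized counts in HSD17B1-KI and 112, 164 and 245 in WT. WT 5 and HSD17B1-KI 6 were again the highest mice, although by a smaller step. The log2 fold change was 0.04 with a standard error of 0.19 (adjusted p = 0.965, limma-trend).

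Nr4a1 (ENSMUSG00000023034, chromosome 15, 101254269 to 101274795), an orphan nuclear receptor that LH induces in theca cells, varied most of the 10. In HSD17B1-KI it ranged over 1171, 2570 and 12903 normalized counts, and in WT over 999, 2881 and 9090. HSD17B1-KI 6 and WT 5 led, followed by WT 2 (5725), HSD17B1-KI 1 (5084) and WT 1 (4937), while the 6 lowest mice, 3 of each genotype, had at most 1655. The means of 4059 ± 4140 (SD, n = 7) and 3612 ± 2826 (SD, n = 8) gave a log2 fold change of 0.08 with a standard error of 0.56 (adjusted p = 0.975, limma-trend; p = 0.890, exact permutation test), and the sign turned to -0.28 without HSD17B1-KI 6.

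Nr4a2 (ENSMUSG00000026826, chromosome 2, 57106830 to 57124003), a paralog of Nr4a1, had 305, 367 and 544 normalized counts in HSD17B1-KI and 342, 445 and 479 in WT. In WT, 7 of the 8 mice lay between 436 and 479 with WT 7 below them, and those of 6 of the 7 HSD17B1-KI mice lay under the WT mean, the exception being HSD17B1-KI 6. The means were 392 ± 80.6 (SD, n = 7) and 438 ± 41.1 (SD, n = 8), and the difference, a log2 fold change of -0.18 with a standard error of 0.12 (adjusted p = 0.666, limma-trend), did not exceed the spread between mice (p = 0.148, exact permutation test). Without HSD17B1-KI 6 the log2 fold change was -0.26 and the exact permutation test gave p = 0.0183, unadjusted, while the limma-trend adjusted p was 0.487.

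Ier2 (ENSMUSG00000053560, chromosome 8, 84661331 to 84662852), a small nuclear protein of the same early response, had 1028, 1309 and 2576 normalized counts in HSD17B1-KI and 905, 1391 and 2771 in WT. WT 5 and HSD17B1-KI 6 were the highest, followed by WT 1 (2032) and HSD17B1-KI 1 (1819). The log2 fold change was 0.01 with a standard error of 0.25 (adjusted p = 0.994, limma-trend), and its sign turned to -0.03 with edgeR and DESeq2.

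Per kilobase of exon, the order of the members by their median normalized count per kb over the 15 mice was Jun (1358), Ier2 (909), Egr1 (829), Nr4a1 (769), Junb (614), Fos (312), Nr4a2 (107), Atf3 (101), Egr2 (48.5) and Fosb (9.29). Ier2, Egr1, Nr4a1 and Junb followed each other within ranges that overlapped widely (594 to 1821, 594 to 3542, 285 to 3677 and 352 to 2022), and Nr4a2 and Atf3 did so too (75.2 to 134 and 63.8 to 165). Jun ranked at percentile 92.2 of the genes tested and Fosb at percentile 21.4.

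The members ranged from variable to steady genes. The residual SD of the log2 values within genotype was 1.2 for Nr4a1 and 1.06 for Fos, at percentiles 93.5 and 91.0 of all genes tested, followed by Junb (0.79, percentile 82.1), Egr1 (0.77, percentile 80.6) and Fosb (0.72, percentile 78.3). Ier2 was at percentile 66.7, Egr2 at 54.6 and Atf3 at 50.4. Jun (0.25, percentile 39.5) and Nr4a2 (0.22, percentile 33.8) were as steady as many other genes. Between the highest and the lowest mouse the values of Nr4a1 differed 12.9-fold and those of Fos 12.8-fold.

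Most members had high values in HSD17B1-KI 6 and WT 5. HSD17B1-KI 6 was the highest of the 15 mice for 5 members and among the top 2 for 7, and WT 5 was the highest for 3 and among the top 2 for 7. The mean of the members' log2 values, centred within genotype and scaled to an SD of 1, was 1.59 in HSD17B1-KI 6 and 1.27 in WT 5, and next 0.79 in WT 1, as the plot of the scaled values shows. The exceptions were Jun and Atf3 for both mice, Fosb for HSD17B1-KI 6 and Nr4a2 for WT 5. Without both, 0 members were DE, as with all mice, and the log2 fold change of Fos turned from 0.08 to -0.03 and that of Nr4a1 from 0.08 to -0.03. These libraries were not the deepest or the shallowest, and the correlation of a member with the log2 library total was between -0.41 (Jun) and 0.03 (Fos).

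**Figure D3:**
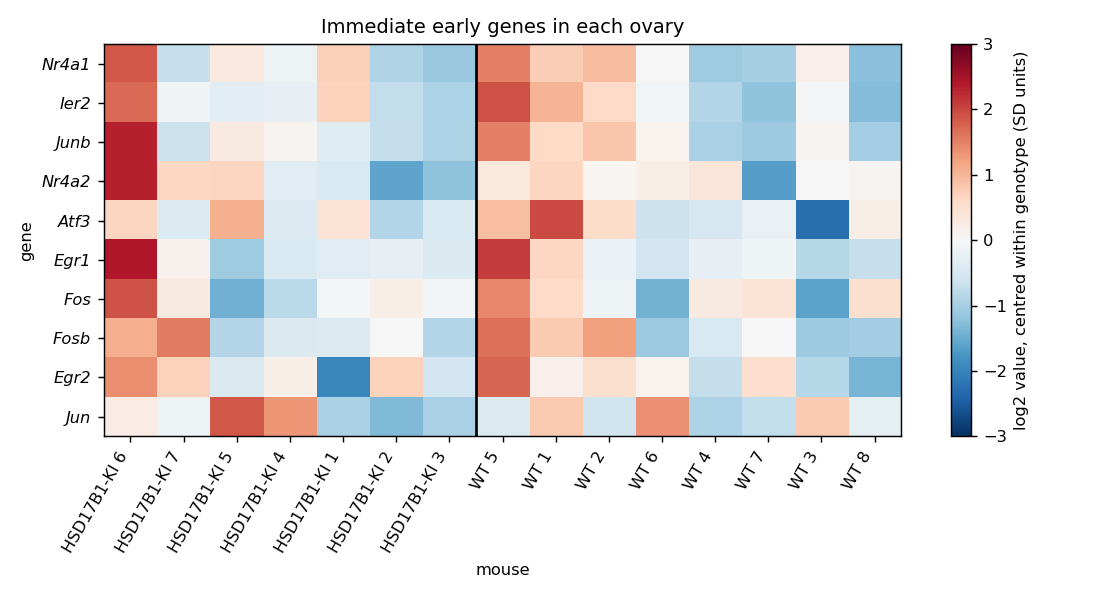
Log2 values of the immediate early genes (vertical axis) in each mouse (horizontal axis, HSD17B1-KI left and WT right of the line), centred within genotype and in SD units. HSD17B1-KI 6 and WT 5 are high for most genes, and Fos is low where Jun is high in HSD17B1-KI 4, HSD17B1-KI 5, WT 3 and WT 6.

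Across the 15 mice most members varied together. The median Pearson r over the 45 pairs was 0.47, 42 pairs were above 0, and 13 had an adjusted p under 0.05 (permutation test with 100000 resamples, two-sided, Benjamini-Hochberg over the 45 pairs). Pairs of other genes were not tested in this way, so that whether 13 of 45 is more than among other genes is not known. By Spearman's rho 6 pairs had an adjusted p under 0.05, all of them among the 13, and the count by Pearson's r was 5 without WT 5 and 7 without HSD17B1-KI 6. The tightest were 3 pairs among Nr4a1, Junb and Ier2. Nr4a1 and Ier2 had r = 0.95 and rho = 0.93 (both p = 1e-05, the smallest these permutations can give, adjusted 0.000225), with 0.94 within HSD17B1-KI and 0.97 within WT. Nr4a1 and Junb had r = 0.93 and rho = 0.91 (both p = 1e-05, adjusted 0.000225), with 0.90 and 0.99 within the genotypes. Junb and Ier2 had r = 0.89 and rho = 0.88 (permutation p = 3e-05 and 6e-05, adjusted 0.000338 and 0.00090), with 0.83 and 0.98 within the genotypes.

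These 3 pairs did not rest on the extreme mice. Without HSD17B1-KI 6 and WT 5, which were also the 2 mice farthest from the median of Nr4a1 and of Junb, r was 0.92, 0.87 and 0.78 (adjusted permutation p = 0.0018, 0.0081 and 0.0321). They were then the only 3 of the 45 pairs with an adjusted p under 0.05, and the median r fell to 0.31. Egr1 with Junb went from r = 0.71 (permutation p = 0.00563, adjusted 0.0230; rho = 0.33, p = 0.228, adjusted 0.311) to -0.02, and Egr1 with Nr4a1 from 0.66 (permutation p = 0.00561, adjusted 0.0230; rho = 0.46, p = 0.0897, adjusted 0.224) to 0.09, so that both relations rested on these 2 mice.

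Fos varied with Egr1 rather than with Nr4a1 or Junb. Fos and Egr1 had r = 0.84 and rho = 0.75 (permutation p = 2e-05 and 0.00205, adjusted 0.00030 and 0.0186), with 0.94 within HSD17B1-KI and 0.74 within WT. Without HSD17B1-KI 6 and WT 3, the mice farthest from the median of Fos, r was 0.74, and without HSD17B1-KI 6 and WT 5 it was 0.71 (adjusted permutation p = 0.0590). Fosb followed Egr1 in the same way, with r = 0.69 and rho = 0.75 (permutation p = 0.00293 and 0.00207, adjusted 0.0188 and 0.0186), and 0.70 without HSD17B1-KI 6 and WT 5. Fos and Nr4a1 had r = 0.28 (adjusted permutation p = 0.375) and Fos and Junb r = 0.33 (adjusted permutation p = 0.300). The differences between these correlations were not tested.

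**Figure D4:**
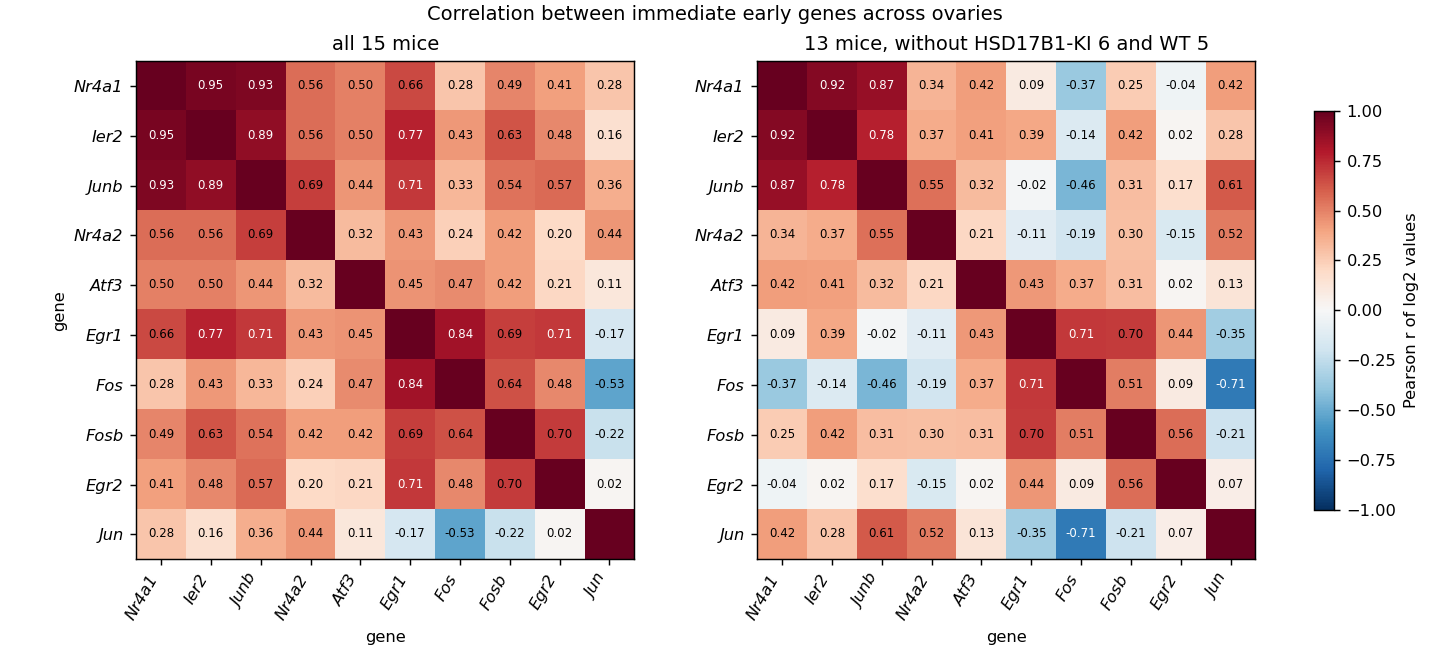
Pearson r between the log2 values of each pair of immediate early genes, in all 15 mice (left) and in 13 mice without HSD17B1-KI 6 and WT 5 (right). The block of Nr4a1, Ier2 and Junb stays between 0.78 and 0.92 on the right, whereas Egr1 with Junb drops from 0.71 to -0.02 and Fos with Jun goes from -0.53 to -0.71.

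Fos and Jun, the partners of AP-1, went in opposite directions, although not beyond the adjusted threshold. Their r was -0.53 (permutation p = 0.0425, adjusted 0.106) and their rho -0.30 (permutation p = 0.276, adjusted 0.355), with -0.45 within HSD17B1-KI and -0.64 within WT. Without HSD17B1-KI 6 and WT 3 r was -0.64, and without HSD17B1-KI 6 and WT 5 it was -0.71 (adjusted permutation p = 0.0590). The 4 lowest values of Fos were 369 in HSD17B1-KI 4, 234 in HSD17B1-KI 5, 197 in WT 3 and 225 in WT 6, and the other 11 mice had at least 552. The same 4 mice had the 4 highest values of Jun, 5560, 6077, 5176 and 5712 in that order, although WT 1 followed closely with 5168. A principal component analysis of the scaled values had the same pattern: the first component (56.0% of the variance) had loadings between 0.26 and 0.39 for 9 members and 0.04 for Jun, and the second (20.4%) had its most extreme loadings of 0.46 for Fos and -0.64 for Jun.

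**Figure D5:**
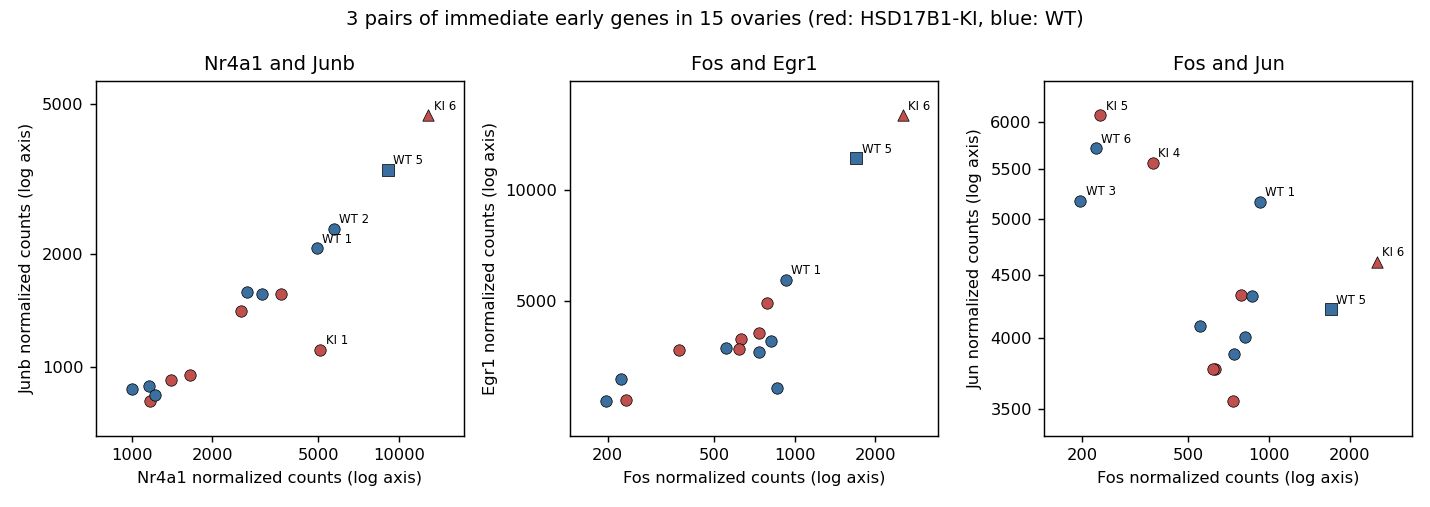
Normalized counts of Nr4a1 and Junb, of Fos and Egr1, and of Fos and Jun in 15 ovaries (log axes, red for HSD17B1-KI and blue for WT, triangle HSD17B1-KI 6, square WT 5, mice that stand apart labelled). Nr4a1 and Junb lie along 1 line (r = 0.93), Egr1 is highest in HSD17B1-KI 6 and WT 5, and the 4 mice with the lowest Fos have the highest Jun.

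Of 13856 other genes whose mean was at least 100 normalized counts, those whose values over the 15 mice were most like the mean of the members were led by Btg2 (r = 0.89), an antiproliferative gene and early gene itself, Igbp1 (0.87), Sik1 (0.87), a cAMP-induced kinase, 1110008L16Rik (0.87), Siah1a (0.87) and Ube2e1 (0.85), which encode ubiquitin ligase and conjugating enzymes, Sptssa (0.84), Acbd6 (0.84), Zfand5 (0.84) and 3010003L21Rik (0.83). Over all ranked genes the median r was -0.01 and the 95th percentile 0.50. Without HSD17B1-KI 6 and WT 5 the r of these 10 genes was between 0.56 (1110008L16Rik) and 0.89 (Siah1a). Btg2 had 3581 normalized counts in HSD17B1-KI 6 and 3304 in WT 5, against a median of 1978, and Sik1 had 4175 and 3448, against a median of 1241. The lowest r belonged to Alg12 (-0.90), Atxn2 (-0.89), Caskin2 (-0.89), Sec31a (-0.88) and Copg1 (-0.87), of which Sec31a and Copg1 encode coat proteins of transport vesicles. The values of these 5 genes spanned narrow ranges, such as 875 to 1138 for Alg12. Several of the 10 genes most like the members' mean also did, such as 1110008L16Rik (915 to 1185) and Siah1a (1229 to 1614). Btg2 (1380 to 3581) and Sik1 (737 to 4175) spanned wider ranges.

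Among 40 other early response genes 0 were DE (against 0.214% of all genes), with a median log2 fold change of -0.18 and 30 of the 40 below 0. At an unadjusted p under 0.05, 9 were lower and 0 higher, where 4.64% of all genes were lower. Without WT 1 and WT 8, the libraries with the highest sums of oviduct markers, 4 of these 9 genes were lower and 0 genes higher, beside 4.04% and 4.72% of all genes in that fit, an alternative chosen after seeing the data. In that fit the median log2 fold change of the list was -0.17, with 32 of the 40 below 0. WT 1 and WT 8 held the 2 highest values of 4 genes of the list (Ier3, Klf4, Maff and Arc), such as 1280 and 1407 normalized counts of Ier3 against at most 853 in the other mice, and the part of oviduct material in the list's values was not tested. The highest log2 fold changes were those of Cebpb (0.39), Ppp1r15a (0.34), Cebpd (0.25) and Dusp5 (0.16), and the lowest those of Fosl1 (-1.02), Npas4 (-0.79), Dusp1 (-0.65) and Sgk1 (-0.62), with limma-trend adjusted p-values of 0.320 or more for these 8 genes. Dusp1, the phosphatase that switches off MAP kinases, had 3085 normalized counts in WT 1, 3377 in WT 2 and 4873 in WT 5 and at most 1287 in the other 12 mice, HSD17B1-KI 6 included (1242). In that gene HSD17B1-KI 6 and WT 5 therefore parted. Of the 33 genes of this list that were ranked for likeness to the members' mean, 14 had r above 0.50, where 5% of all ranked genes did, and the median r was 0.40, from 0.89 (Btg2) to -0.56 (Gadd45g).

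The 25 partners and upstream factors, such as Srf, Creb1 and the MAP kinases, had 0 DE genes with limma-trend and 1 higher and 1 lower at an unadjusted p under 0.05, beside 0.214% DE, 5.36% higher and 4.64% lower among all genes tested. The median log2 fold change was 0.01, and the extremes were Rxra (0.24), the partner of NR4A receptors, and Batf (-0.40). Jund, the steady JUN protein, was the one most like the members' mean (r = 0.77), and the median r of the list was -0.03. Of 23 genes that respond to LH and cAMP in the ovary 0 were DE, the median log2 fold change was -0.39 with 17 below 0, and 3 were lower and 0 higher at an unadjusted p under 0.05 (4.64% and 5.36% of all genes). DESeq2 and edgeR, which called 2.16% and 0.232% of all genes, also called 0 genes in each of these 3 lists. Star (0.99), the cholesterol transporter, and Lhcgr (0.85), the LH receptor, had the highest log2 fold changes, and Ptgs2 (-1.32), the prostaglandin synthase of ovulation, Runx2 (-1.05) and Pgr (-1.03) the lowest, with limma-trend adjusted p-values of 0.460 or more for these 5. Pgr, the progesterone receptor, was highest in WT 8 (1653 normalized counts) and WT 1 (845), the libraries with the highest sums of oviduct markers, and at most 466 in the others, and without both its log2 fold change was -0.26. Ptgs2 was highest in WT 8 (178 normalized counts). Without WT 1 and WT 8 the log2 fold changes of Ptgs2 and Runx2 were -0.91 and -1.18, and those of Star and Lhcgr 0.71 and 0.83. The median of the list was then -0.3, with 16 of the 23 below 0. The part of oviduct material in these values was not tested. The median r of this list with the members' mean was 0.20, and 2 of 15 ranked genes were above 0.50.

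Of 17 stress and heat shock genes Hmox1, which encodes heme oxygenase, was DE, beside 0.214% of all genes, and 2 genes were higher and 4 lower at an unadjusted p under 0.05 (5.36% and 4.64% of all genes). HSD17B1-KI mice averaged 5287 ± 1477 normalized counts (SD, n = 7) and WT mice 2739 ± 691 (SD, n = 8), a log2 fold change of 0.94 (adjusted p = 0.0468, limma-trend), and when each mouse was left out in turn the list kept a DE gene in 2 of 15 cases, on leaving out HSD17B1-KI 5 or HSD17B1-KI 7. DESeq2, which called 2.16% of all genes, also called Hmox1 (adjusted p = 0.000264), and edgeR, which called 0.232%, called 1 gene of the list. The lowest log2 fold changes were those of Cdkn1a (-0.69), a cell cycle inhibitor, and the heat shock genes Hsph1 (-0.47) and Hspb1 (-0.42), which did not pass (limma-trend adjusted p = 0.587, 0.237 and 0.511), and the heat shock genes Hspa1a and Hspa1b, named after their values were seen, were at 0.09 and 0.21 (adjusted p = 0.905 and 0.800). Hsph1 was highest in WT 8 (12975 normalized counts, next 8324), and Hspb1 in WT 1 and WT 8 (2422 and 2336, next 2095). Without WT 1 and WT 8 the log2 fold changes were -0.34 and -0.27. In that fit 1 gene of the list was higher and 2 lower at an unadjusted p under 0.05, beside 4.72% and 4.04% of all genes. Of the list 0 genes were then DE, where 9 of all 21525 genes were, and the part of oviduct material was not tested. The median r of the list with the members' mean was -0.11, with Hmox1 (r = 0.51) the 1 gene above 0.50. Of 11 steroid genes linked to NR4A1, a list chosen in part on these samples, Hsd3b6 was DE (log2 fold change 1.97, limma-trend adjusted p = 0.0239) and 11 of 11 log2 fold changes were above 0, with a median of 0.74. Over all genes 0.214% were DE. At an unadjusted p under 0.05, 4 were higher and 0 lower (5.36% and 4.64% of all genes). DESeq2, which called 2.16% of all genes, called 3 genes of this list, Hsd3b6 (adjusted p = 7.97e-07), Insl3 (0.00246), a hormone of theca cells, and Nr5a1 (0.0245), the nuclear receptor SF-1, also named after its values were seen. The limma-trend adjusted p-values of these 3 genes were 0.0239, 0.110 and 0.194. The summed theca and interstitial cell markers, a list that shares genes with this one, had a median of 264931 normalized counts in HSD17B1-KI and 127770 in WT, and their part in these values was not tested. On leaving out each mouse in turn the list kept a DE gene in 11 of 15 cases and lost it without HSD17B1-KI 2 or 4 and without WT 2 or 4. None of its 9 ranked genes had an r above 0.50 with the members' mean, and the r of Hsd3b6 was -0.13.

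Beside the joint variation of the members, the summed level of 5 erythroid markers (Hba-a1, Hba-a2, Hbb-bs, Hbb-bt and Alas2, all above 0 in all mice) was highest in WT 5 (4410 normalized counts) and next in HSD17B1-KI 6 (2516), with ranges of 1452 to 2516 in HSD17B1-KI and 1148 to 4410 in WT. Its r with the members' mean was 0.62 (15 mice). The part of these cells in the result was not tested. The sums of the 5 oviduct markers had an r of -0.05 with the members' mean, and those of the other 12 marker lists were between -0.29 (smooth muscle) and 0.20 (luteal cells). Ranked from low to high among the 15 mice, HSD17B1-KI 6 was 14 and WT 5 15 for erythroid cells, 14 and 11 for T cells and 12 and 10 for oocytes, while HSD17B1-KI 6 was 15 for theca and interstitial cells and 1 for stroma, where WT 5 was 5 and 11.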

How the data were processed

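Total RNA of snap-frozen ovaries was sequenced from stranded mRNA libraries of 7 HSD17B1-KI and 8 WT mice. Per the labels, reads were demultiplexed with bcl2fastq 2.20 and aligned with STAR 2.7.3 to mm10. The authors divided gene counts by size factors, and the deposited signal is 1 table of normalized counts for 27907 genes. The counting program, its use of strand and the annotation release are not given in the sources used here. Whole reads were recovered for 100.0% of the values (tolerance 0.001 reads), 26544745 to 72362981 per library, which leaves genes of few reads imprecise.

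Members and gene lists were chosen with earlier results of these data known. The genotypes were compared with limma-trend 3.58.1 (R 4.3.3) on log2(normalized count + 1), which understates changes of low genes, for the 21525 genes whose mean was at least 2, two-sided, with Benjamini-Hochberg adjustment over all of them at 0.05. The main test was planned on normalized values because DESeq2, which the study used, needs counts. edgeR 4.0.16 (quasi-likelihood, TMM) and DESeq2 1.42.0 on recovered reads were alternatives, beside pseudocounts of 0.1 and 10, no filter, a filter at a mean of 10, upper quartile scaling, a replicate block, the log2 library total as covariate and leaving out each mouse. Chosen after seeing the data were leaving out HSD17B1-KI 6 with WT 5, leaving out WT 1 with WT 8, and DESeq2 without replacement of outlier counts. Exact permutation tests covered all splits of the mice into 7 and 8 (SciPy 1.17.1).

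Named were all members, DE genes of each list, up to 4 genes at either end of the log2 fold changes per list (mean of at least 10), the 10 genes most and 5 least like the members' mean (mean of at least 100), and markers by summed level. Gadd45g, Jund and Btg2 in their lists were singled out after their values were seen. Of the listed symbols 5 were found under an older symbol. Positions are from GENCODE M21 on GRCm38, the assembly of mm10. Fits were tested on simulated data. Each mouse is 1 animal of its group.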

Additional observations from a re-analysis of the deposited data

Results flagged for a closer look

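Values were compared with Dixon's criterion for a sample far from the others of its group, for the 10 members and their mean in each genotype (22 groups), and 3 stood apart, where chance gives about 1 in 20 groups. Junb in HSD17B1-KI 6 was 4652 normalized counts, with a gap to the next mouse of 0.63 of the range of log2 values in its genotype. Egr1 in HSD17B1-KI 6 was 15882 normalized counts, with a gap of 0.66 of the range. Nr4a2 in WT 7 was the lowest WT value at 342 normalized counts, with a gap of 0.72 of the range, while the other 7 WT mice lay between 436 and 479.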

How the results depend on the processing

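Under all alternatives run 0 of the 10 members were DE, and the lowest adjusted p of any member was 0.487 (Nr4a2 without HSD17B1-KI 6, limma-trend), while DESeq2 without replacement gave none for Egr1. Over all genes the number of DE genes moved from 46 to 28 with no filter, 465 with DESeq2, 459 with DESeq2 without replacement of outlier counts, 0 with the replicate block, 23 with the log2 library total as covariate, 12 without HSD17B1-KI 6 and WT 5, and 9 without WT 1 and WT 8. Leaving out 1 mouse gave 6 (without HSD17B1-KI 2) to 139 (without HSD17B1-KI 5). The stress list went from 1 DE gene to 0 with no filter, the block, the covariate and both pairs left out, and to 0 to 1 without single mice. The steroid list went from 1 to 3 with both DESeq2 fits, to 0 with the block and with both pairs left out, and to 0 to 1 without single mice. The cause was not tested for these counts. Without WT 1 and WT 8 the log2 fold change of Hsd3b6 was 1.69 (limma-trend adjusted p = 0.0680), beside 1.97 with all mice. That of Hmox1 was 0.81 (limma-trend adjusted p = 0.188), beside 0.94 with all mice.

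The replicate block of limma-trend gave 0 DE genes over all genes. Its numbers are those of the sample names, and whether they pair mice is not known. The correlation of same-numbered mice ranged from -0.548 to 0.55, 2 of 7 pairs were above 0.1 and 1 pair was the best match of its number. Such correlations cannot decide whether mice were paired. With the replicate block the log2 fold changes of Egr2, Nr4a1 and Ier2 turned to -0.03, -0.12 and -0.08.

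Signs of members near 0 also turned elsewhere. Without HSD17B1-KI 6 and WT 5 Fos and Nr4a1 were at -0.03 each, and without WT 1 and WT 8 Egr2 was at -0.03, Nr4a1 at -0.01 and Ier2 at -0.01. Egr1 was at -0.30 with DESeq2, and Ier2 at -0.03 with edgeR and both DESeq2 fits. Without single mice the ranges were -0.24 to 0.33 for Fos, -0.10 to 0.03 for Jun, -0.45 to 0.01 for Junb, -0.13 to 0.39 for Egr1, -0.04 to 0.16 for Egr2, -0.28 to 0.33 for Nr4a1, -0.13 to 0.15 for Ier2 and -0.05 to 0.15 for Atf3, while Fosb (-0.56 to -0.22) and Nr4a2 (-0.26 to -0.12) kept their sign. The exact permutation test of members at an unadjusted p under 0.05 gave 1 (Nr4a2, p = 0.0297) without HSD17B1-KI 6 and WT 5, against 0 with all mice, and 0 to 1 without single mice.

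The number of correlated pairs fell from 13 to 3 without HSD17B1-KI 6 and WT 5 and to 8 without WT 1 and WT 8, and ranged from 5 (without WT 5) to 17 (without HSD17B1-KI 1), with 7 without HSD17B1-KI 6. The median r was 0.40 to 0.50 without single mice.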

Other observations

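The 4 mice with the lowest Fos and the highest Jun, HSD17B1-KI 4, HSD17B1-KI 5, WT 3 and WT 6, were also set apart by Runx1, Adamts1 and Cyp17a1, 3 genes singled out after their values were seen. They had 7223 to 10384 normalized counts of Runx1, a transcription factor induced around ovulation, and the other 11 mice had 1575 to 3535. Adamts1, the protease of the ovulating follicle, was at 7736 to 25362 in the 4 mice and at 1495 to 2866 in the others. Cyp17a1, the androgen-forming enzyme of theca cells, was at 107 to 254 in the 4 mice and at 2033 to 56551 in the others. These 4 mice were found from the values of Fos, so that no test was made. Of the 23 LH and cAMP genes, 3 (Runx1, Adamts1 and Il6) were higher in each of the 4 mice than in any other. A further 2 (Ptx3 and Inhba) were lower, and 18 did not separate the 4 mice from the rest. Genes outside the list were not counted in this way, so that whether these numbers exceed those among other genes is not known. Il6 was low and separated narrowly, at 18.48 to 39.98 normalized counts in the 4 mice and 3.105 to 16.67 in the others. Ptx3, a matrix protein of the ovulating cumulus, was at 28.6 to 85.4 in the 4 mice and at 87.1 to 182 in the others, and Inhba, the activin subunit, at 1594 to 2233 and at 3033 to 19968. Pgr was low in the 4 mice (52.8 to 96.4), overlapping the others (87.0 to 1653). Nr4a1 and Junb did not follow this split, with 2570 to 3618 and 1412 to 1580 normalized counts in the 4 mice, within the range of the others. The summed stroma markers were 110475 to 151160 in the 4 mice and 61425 to 95714 in the others, the summed granulosa cell markers 75165 to 98954 and 97963 to 224605, and their part in this split was not tested.

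Dusp1, Sgk1 and Runx2, also singled out after their values were seen, were highest in WT 1, WT 2 and WT 5. Sgk1, a kinase induced by steroid hormones, had 18002, 28021 and 23337 normalized counts in these mice, and the other 12 had at most 14326. Runx2, a factor of the luteinizing follicle, had 8839, 15149 and 11381, and the other 12 had at most 5785.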
